A study of Mus musculus with 10 samples.

Results

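The mitosis genes are 34 mouse genes, listed by symbol, whose products carry a cell from entry into mitosis to cytokinesis. The list was matched to the gene table of an Affymetrix expression array, and 33 of the 34 were measured, out of 18193 genes in all. Each gene was read through 1 probe set, the one with the highest mean log2 intensity over the 10 arrays. Ccnb1, which encodes cyclin B1, had no probe set under that symbol in the gene table and is not analysed here.

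The study profiled the initial phase of reprogramming in mouse embryonic fibroblasts (MEFs) of a 129/SvJ x C57/B6 hybrid background. These fibroblasts are secondary and inducible: each cell already carries the reprogramming factors OSKM (Oct4, Sox2, Klf4 and Myc) under doxycycline control, so the controls carry them too, uninduced. Each of 5 groups had 2 arrays. The cohorts labelled with an average of 0, 1, 2 and 3 or more divisions were induced for 96 h in medium with 15% serum and doxycycline, given in the labels as 2 ug/ul. The control cohort was serum-starved for 96 h in 0.5% serum without induction. Every contrast with the control therefore combines induction, serum and division. The labels call the 2 arrays of a group biological replicates for the 4 earlier arrays and replicates for the 6 later ones, and state neither whether they came from separate cultures nor how cells were assigned to a division number, so p-values measure the spread between these arrays, which may be technical. The control and the cohort with 3 or more divisions form the earlier registered set of 4 arrays, and the cohorts with 0, 1 and 2 divisions form the later set of 6. Contrasts between the sets cannot be told apart from the sets themselves; the contrast of 3 or more divisions with the control and that of 2 with 0 divisions lie within a set.

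Mitosis is driven by cyclin-dependent kinase 1 (Cdk1) bound to cyclins, with Plk1 and the Aurora kinases building the spindle and kinetochores joining chromosomes to it. The spindle checkpoint holds back the anaphase-promoting complex until every chromosome is attached, after which the midzone and contractile ring divide the cell. Most of these genes are transcribed late in the cell cycle, through promoters bound by the MuvB complex with B-Myb and FoxM1, and are repressed in quiescent, serum-starved fibroblasts. A sequence known from such promoters is the cell cycle genes homology region (CHR), read by MuvB, and a frequent neighbour is the CCAAT box, bound by NF-Y.

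The promoter letters of the members are shown as a description of the list. The CHR is known from promoters of such genes, so its share among the members is not a result of these arrays. RefSeq windows of 300 bases (GRCm38.p6, 250 before to 50 after the annotated start) existed for 27 of the 33 measured members. The CHR was searched as TTTGAA and the CCAAT box as CCAAT, both on either strand. A gene with several windows was counted once, with a match if any of its windows held one. A CHR match stood in 21 of 27 members (77.8%). The share was 15.7% of the 14452 measured genes with a window and 20.2% of the 27025 genes in the RefSeq table. A CCAAT match stood in 20 of 27 (74.1%), against 42.0% of the measured genes and 41.1% of all genes in the table. Both motifs stood together in 18 of 27 (66.7%), against 6.21% of the measured genes and 7.97% of all genes in the table, and in 1 member window a CHR and a CCAAT match shared letters. Of the members with a window, Birc5, Bub1, Cenpe, Mad2l1, Nuf2 and Nusap1 had no CHR match. The following windows run 5′ to 3′ with matches of either motif in capitals. Aurka, Plk1 and Cdc20 are shown as members with large changes and both motifs, Anln as the member with the largest change, and Cenpf and Nuf2 as the members whose levels were lower in the cohort with 3 or more divisions than in the one with 2.
Aurka, chr2:172370521-172370820, minus strand: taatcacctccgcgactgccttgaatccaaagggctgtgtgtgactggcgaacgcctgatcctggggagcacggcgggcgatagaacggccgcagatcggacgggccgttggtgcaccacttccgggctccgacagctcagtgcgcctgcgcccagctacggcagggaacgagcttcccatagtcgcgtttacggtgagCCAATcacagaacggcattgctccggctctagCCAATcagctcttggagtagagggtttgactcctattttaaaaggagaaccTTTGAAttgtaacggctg
Plk1, chr7:122159185-122159484, plus strand: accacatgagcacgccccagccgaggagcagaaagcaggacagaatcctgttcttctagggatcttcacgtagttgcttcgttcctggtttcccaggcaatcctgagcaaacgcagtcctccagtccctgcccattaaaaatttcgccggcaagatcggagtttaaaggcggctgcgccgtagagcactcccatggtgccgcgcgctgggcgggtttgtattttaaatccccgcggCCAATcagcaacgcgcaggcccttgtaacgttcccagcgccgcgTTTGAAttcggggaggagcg
Cdc20, chr4:118437294-118437593, minus strand: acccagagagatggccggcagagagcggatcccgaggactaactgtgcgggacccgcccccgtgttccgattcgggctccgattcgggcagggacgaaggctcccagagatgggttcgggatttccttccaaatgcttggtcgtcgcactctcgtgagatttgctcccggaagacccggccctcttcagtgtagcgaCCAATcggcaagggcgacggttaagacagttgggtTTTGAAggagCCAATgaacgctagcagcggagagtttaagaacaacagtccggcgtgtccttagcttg
Anln, chr9:22389157-22389456, minus strand: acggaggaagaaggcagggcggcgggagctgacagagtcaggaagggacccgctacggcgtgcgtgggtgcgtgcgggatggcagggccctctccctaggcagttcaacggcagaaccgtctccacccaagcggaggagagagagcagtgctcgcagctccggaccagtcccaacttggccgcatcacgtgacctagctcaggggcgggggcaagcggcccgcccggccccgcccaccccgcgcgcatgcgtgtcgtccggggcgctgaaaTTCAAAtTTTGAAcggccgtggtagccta
Cenpf, chr1:189688037-189688336, minus strand: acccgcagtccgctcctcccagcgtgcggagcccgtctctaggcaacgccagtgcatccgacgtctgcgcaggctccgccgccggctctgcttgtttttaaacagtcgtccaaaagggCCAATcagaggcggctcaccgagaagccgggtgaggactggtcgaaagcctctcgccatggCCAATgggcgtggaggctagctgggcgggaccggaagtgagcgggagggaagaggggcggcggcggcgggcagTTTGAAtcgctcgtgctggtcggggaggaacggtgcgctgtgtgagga
Nuf2, chr1:169531415-169531714, minus strand: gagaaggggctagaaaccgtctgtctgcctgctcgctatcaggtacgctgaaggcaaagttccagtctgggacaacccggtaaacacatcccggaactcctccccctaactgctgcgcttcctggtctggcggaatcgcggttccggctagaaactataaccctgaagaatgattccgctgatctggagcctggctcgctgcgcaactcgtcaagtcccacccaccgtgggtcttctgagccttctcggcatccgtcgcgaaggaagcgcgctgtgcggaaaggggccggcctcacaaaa

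In Aurka the CHR match began at base 33, counted with the start base as 1 and the base before it as -1, and CCAAT matches began at -51 and -19. The CHR match of Plk1 began at 31 and its CCAAT match at -14. Cdc20 had its CHR match at -18, between CCAAT matches at -53 and -8. Anln had CHR matches at 22 and 29, on opposite strands, and no CCAAT match. Cenpf had a CHR match at 3 and CCAAT matches at -132 and -71, and the Nuf2 window held neither set of letters. The windows of Birc5, Mad2l1 and Nusap1, not shown, also held neither set of letters. Against the control these 3 genes rose by 2.04, 0.97 and 1.23 with 3 or more divisions. Whether matches go with the size of a change was not tested. A match is a description of these letters and not a shown binding site.

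Array medians of the deposited intensities ran from 31.42 to 33.95. Summed fibroblast marker intensity lay between 70910 and 82419 in the cohort with 3 or more divisions and between 116738 and 124118 in the control. In this contrast 7 of 11 measured markers were lower, beside 11.7% of all genes, and none higher, beside 15.9%. Summed keratinocyte and epithelial marker intensity lay between 423 and 520 at 0 divisions, 651 and 1191 at 1 division, 1520 and 2437 at 2 divisions, 7096 and 7860 at 3 or more divisions, and 321 and 347 in the control. Of these 10 markers 5 rose at 3 or more divisions, beside the same 15.9% of all genes. Of 10 macrophage markers 1 rose and 1 fell in that cohort (sums of 486 to 554, against 316 to 335 in the control), likewise 1 and 1 of 8 endothelial markers (489 to 543, against 224 to 265), and no pluripotent cell marker of 8 was called (180 to 195, against 180 to 194). The macrophage and endothelial counts lie near the shares of all genes. The 3′ minus 5′ log2 difference of Actb, a sign of RNA integrity, was 0.33 and 0.27 at 0 divisions, 0.42 and 0.31 at 1, 0.42 and 0.49 at 2, 0.45 on both arrays with 3 or more, and 0.28 and 0.30 in the control. That of Gapdh was 0.11 and 0.10 at 0 divisions, 0.22 and 0.18 at 1, 0.13 and 0.25 at 2, 0.27 and 0.25 at 3 or more, and 0.05 and 0.03 in the control. The part of marker composition and RNA integrity in the results was not tested. In bulk RNA, more dividing cells and more mitotic RNA per cell cannot be told apart.

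Against the serum-starved control, mitosis genes were higher across every step of mitosis in the cohort with 3 or more divisions. Of 33 members 32 rose at an adjusted p under 0.05 in limma (Benjamini-Hochberg over all genes), beside 15.9% of all genes, and none fell. The arrays of the groups did not overlap for 33 of 33 members, beside 34.6% of all genes higher without overlap. The median change was 1.77 on the log2 scale (3.42-fold), with a range of 0.62 to 2.34, while the median over all genes was 0.02. The heat map of the members by array shows the control columns as the lowest for nearly all rows.

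**Figure D1:**
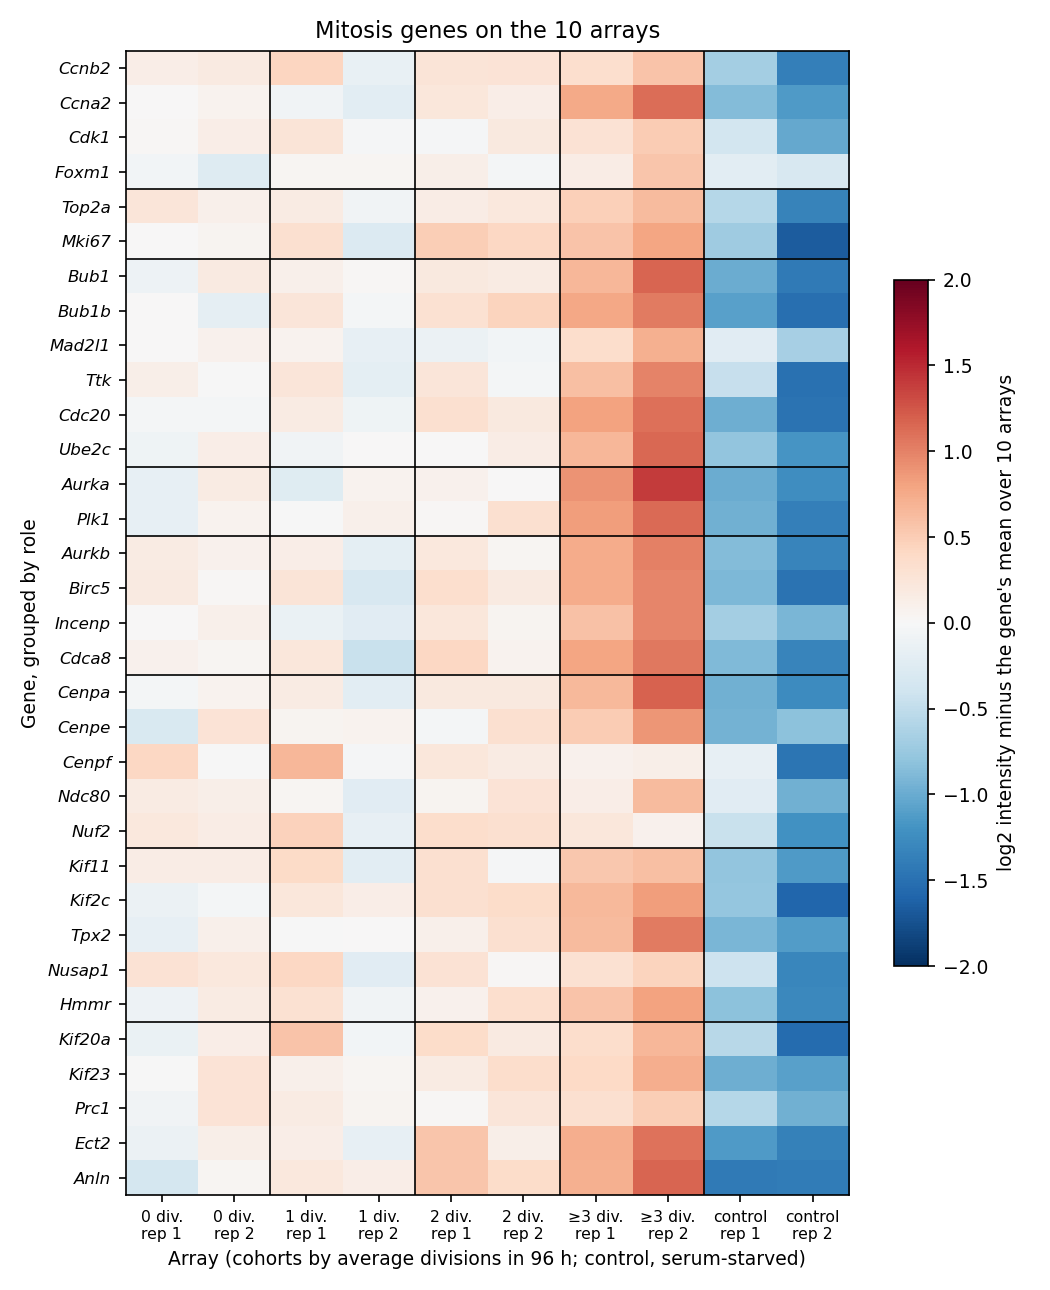
Log2 intensity of each of the 33 measured members (rows, grouped by role) on each of the 10 arrays (columns), coloured as the difference from the gene's mean over the 10 arrays. The 2 control columns are the lowest and the 2 columns with 3 or more divisions are the highest for most rows, with Cenpf and Nuf2 as exceptions at the high end.

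Aurka and Plk1, the pair of spindle-building kinases, both rose. Aurka, the kinase of centrosome maturation and spindle assembly, had log2 intensities of 8.94 and 9.45 with 3 or more divisions, against 7.06 and 6.81 in the control. The groups were far apart relative to their spread, and the change was 2.26 ± 0.21 (SE, n = 2 each; limma adjusted p = 0.000388). Plk1, which acts in mitotic entry, at kinetochores and in cytokinesis, had 8.19 and 8.49 against 6.40 and 5.99 in the control, a change of 2.14 on the log2 scale.

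Entry factors rose by smaller amounts on the whole, with a median of 1.28 over the 4 measured. Ccna2, cyclin A2, had log2 intensities of 9.43 and 9.80 with 3 or more divisions, against 7.81 and 7.55 in the control (change 1.94 ± 0.15 SE, n = 2 each, limma adjusted p = 0.000264). Foxm1, the transcription factor of late cell cycle genes, had 6.30 and 6.71, against 5.94 and 5.84. Its mean level over the 10 arrays was the lowest of the 33, at percentile 47.2 among genes. Its arrays did not overlap, but its change of 0.62 ± 0.16 (SE, n = 2 each; limma adjusted p = 0.021) was the smallest of the 33, and the call was lost in the fit of the 4 arrays alone (adjusted p = 0.0733) and without either control array or the second array with 3 or more divisions. Cdk1 stood at 10.06 and 10.28, against 9.41 and 8.75, and Ccnb2, cyclin B2, at 8.63 and 8.87, against 7.62 and 6.93. The proliferation marker Mki67 had log2 intensities of 9.49 and 9.72, against 8.22 and 7.25 (change 1.87 ± 0.31 SE, n = 2 each, limma adjusted p = 0.00329). Top2a, the topoisomerase that untangles sister chromosomes, rose with it.

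All 6 checkpoint and ubiquitination genes rose, with a median of 2.00. Bub1b, which encodes the checkpoint protein BubR1, had log2 intensities of 7.96 and 8.22 with 3 or more divisions, against 6.10 and 5.68 in the control (change 2.20 ± 0.18 SE, n = 2 each, limma adjusted p = 0.00029). Cdc20, the activator of the anaphase-promoting complex that the checkpoint restrains, had 11.24 and 11.54, against 9.46 and 8.96. Mad2l1, the checkpoint protein Mad2, changed least in its group: it had 9.72 and 10.09, against 9.15 and 8.71 (change 0.97 ± 0.18 SE, n = 2 each, limma adjusted p = 0.00607). Its call was lost without the second array with 3 or more divisions, where the change was 0.79 (adjusted p = 0.0516).

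The chromosomal passenger complex, which corrects attachments and then moves to the midzone, rose as a whole. Birc5, survivin, had log2 intensities of 9.15 and 9.38 with 3 or more divisions, against 7.51 and 6.93 in the control. The change was 2.04 ± 0.24 (SE, n = 2 each; limma adjusted p = 0.000865). Aurkb, Incenp and Cdca8, the other subunits, rose too, and the changes of the complex ran from 1.58 to 2.04.

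Centromere and kinetochore genes were the role group with the lowest median, 0.99 over 5 members. Cenpa, the histone H3 variant that marks centromeres, had log2 intensities of 8.94 and 9.46, against 7.33 and 7.04 in the control (change 2.02 ± 0.20 SE, n = 2 each, limma adjusted p = 0.000511). Nuf2 and Ndc80, the pair that binds microtubules in the NDC80 complex, had smaller changes that passed the test, as did the kinetochore motor Cenpe. Cenpf, a large kinetochore protein, was the member that missed the threshold: it had 7.99 and 8.02, against 7.73 and 6.43 in the control (change 0.93 ± 0.40 SE, n = 2 each, limma adjusted p = 0.129). The 2 control arrays differed more for Cenpf than for any other member. Without the first control array its change was 1.58 and passed (adjusted p = 0.0121), and without the second it was 0.28. With the replicate number as a block it passed too (adjusted p = 0.0312), and 33 of 33 members rose, beside 20.4% of all genes.

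Spindle, midzone and cytokinesis genes all rose. Kif2c, a microtubule-depolymerising kinesin at centromeres, led the spindle group with log2 intensities of 7.53 and 7.72, against 6.10 and 5.29 in the control. Its change was 1.93 ± 0.23 (SE, n = 2 each; limma adjusted p = 0.000934). Tpx2, which activates Aurora A on the spindle, had 8.69 and 9.10, against 7.15 and 6.94. Anln, the anillin scaffold of the contractile ring, had the largest change of the list. Its log2 intensities were 10.36 and 10.81, against 8.24 and 8.25, a change of 2.34 ± 0.18 (SE, n = 2 each; limma adjusted p = 0.000262). Ect2, the exchange factor that activates RhoA at the division plane, had 8.73 and 9.09, against 6.87 and 6.65.

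**Figure D2:**
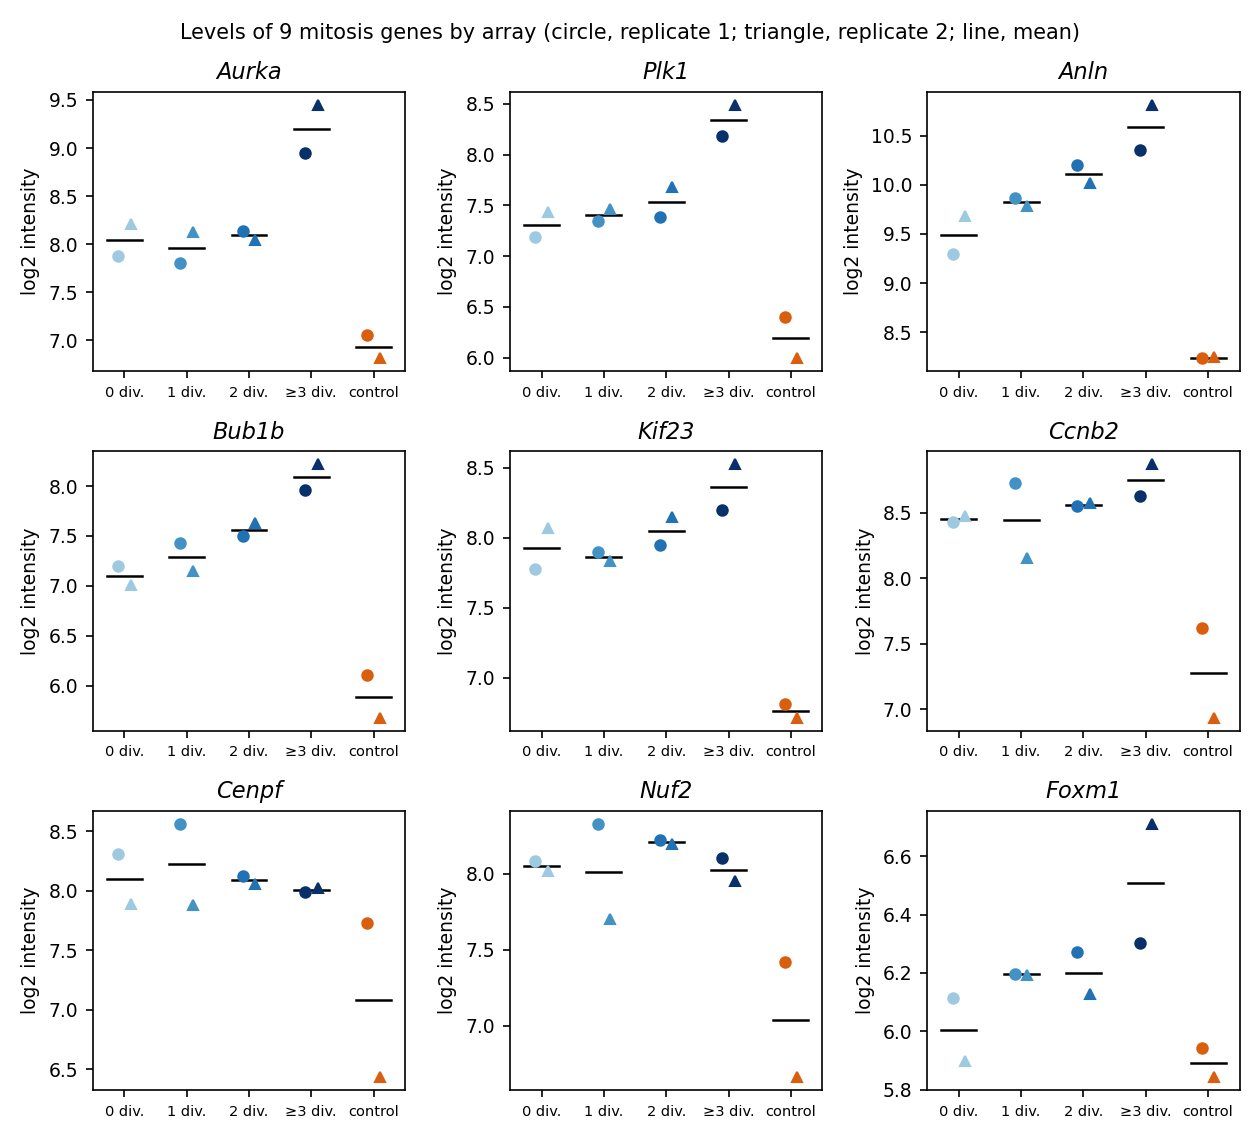
Log2 intensity on each array (points) (circle, replicate 1; triangle, replicate 2) and group mean (line) for 9 members, with the division cohorts in order from left to right and the control at the right. Aurka and Plk1 step up at 3 or more divisions, Anln stands higher in each successive cohort, and Cenpf and Nuf2 sit at similar levels in all 4 cohorts.

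The cohort labelled with 0 divisions held mitosis genes at higher levels than the starved control. This contrast crosses the sets of arrays, so set and cohort cannot be told apart. Of 33 members, 32 were higher on both arrays than on both control arrays, beside 21.4% of all genes, and Foxm1 was the exception. The median change was 1.11 on the log2 scale (2.15-fold), with a range of 0.11 to 1.30, while the median over all genes was close to 0. At the adjusted threshold 1 member rose, Kif23, beside 0.22% of all genes. At an unadjusted p under 0.05, 32 of 33 were higher, beside 7.29% of all genes. With the replicate number as a block, 26 members rose at the adjusted threshold, beside 2.36% of all genes. The block assumes a shared replicate shift, but the first array was higher for 31 of 33 members in the control and 12 at 0 divisions. In the same contrast the summed fibroblast marker intensity was 96565 to 104505, against 116738 to 124118 in the control, and that of endothelial markers 309 to 407, against 224 to 265. Macrophage markers summed to 269 to 317, against 316 to 335 in the control, and keratinocyte markers to 423 to 520, against 321 to 347. Of these 4 lists 0 markers were called, and their part in the result was not tested.

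Kif23, the kinesin of the centralspindlin complex at the midzone, is named here because it was the single member called, after its values were seen. It had log2 intensities of 7.78 and 8.07 at 0 divisions, against 6.81 and 6.71 in the control. The change of 1.16 ± 0.16 (SE, n = 2 each; limma adjusted p = 0.0477) lay just under the threshold, and the call was lost when any of the 10 arrays was left out. The largest change was that of Birc5, which had 8.59 and 8.44, against 7.51 and 6.93 (1.30 ± 0.24 SE, n = 2 each, limma adjusted p = 0.078). Anln had 9.30 and 9.69, against 8.24 and 8.25 (1.25 ± 0.18 SE, n = 2 each, limma adjusted p = 0.05, above the threshold before rounding). For these 3 genes every array at 0 divisions was above every control array.

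The remaining role groups had medians between 0.91 for entry factors and 1.19 for the passenger complex. Bub1, a checkpoint kinase, had log2 intensities of 7.21 and 7.49 at 0 divisions, against 6.31 and 5.89 in the control (change 1.25, limma adjusted p = 0.0574). Plk1 had 7.19 and 7.43, against 6.40 and 5.99 (change 1.11, limma adjusted p = 0.0615). Both were apart from the control, and with the replicate block their adjusted p was 0.0185 for Bub1 and 0.0184 for Plk1. At the low end, Mad2l1 had 9.39 and 9.46, against 9.15 and 8.71, with a change of 0.50 that was 0.72 without the first and 0.28 without the second control array. Foxm1 had 6.11 and 5.90, against 5.94 and 5.84, so its arrays overlapped at a change of 0.11 ± 0.16 (SE, n = 2 each; limma adjusted p = 0.861). The 95% interval of the Foxm1 change ran from -0.25 to 0.47.

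**Figure D3:**
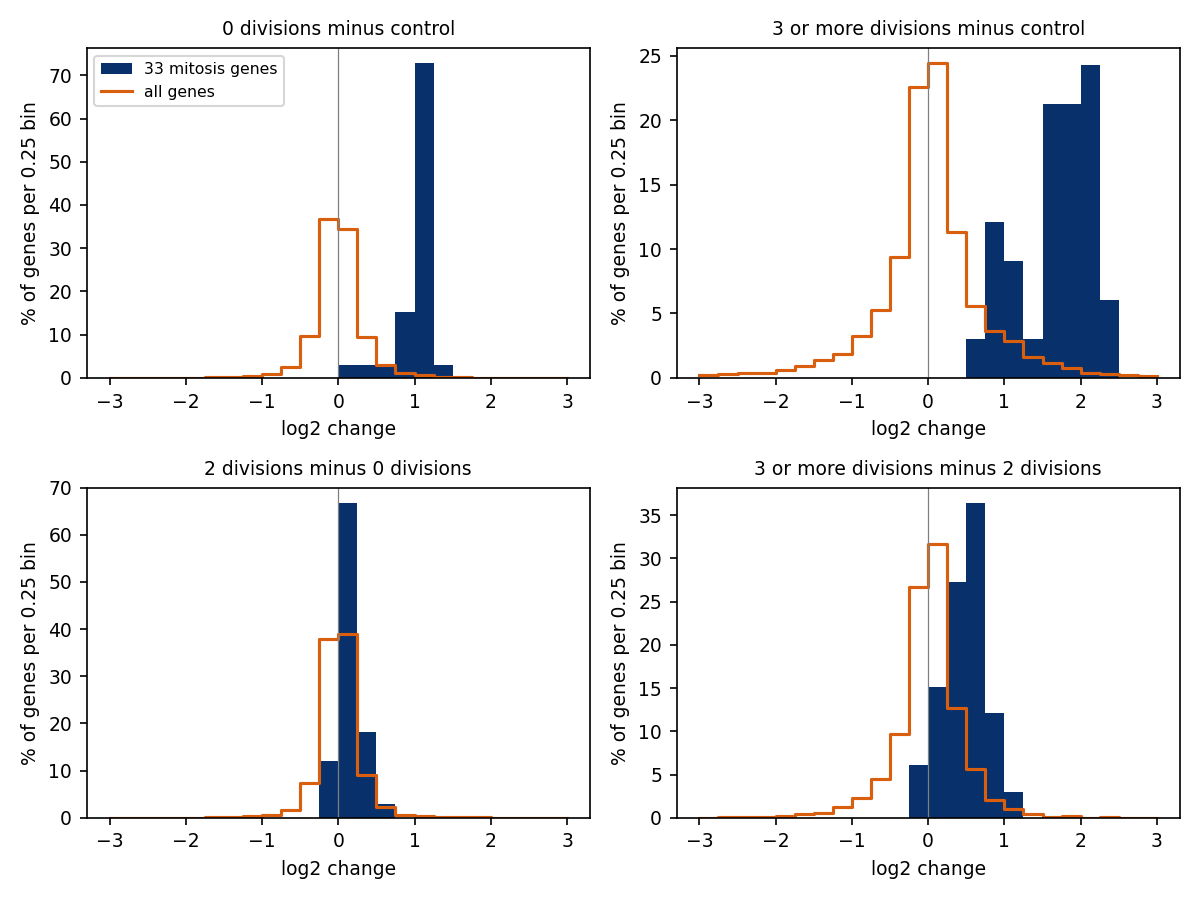
Share of genes in percent (vertical axis) by log2 change (horizontal axis, in bins, values beyond 3 either way not drawn) for the 33 mitosis genes and for all 18193 genes, in 4 contrasts, 1 in each panel. Against the control the members form a peak to the right of the bulk of genes, and between 2 and 0 divisions they lie near 0 with a median of 0.14.

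The cohorts with 1 and 2 divisions gave similar pictures against the same control arrays, which all 4 of the contrasts with the control share. Both contrasts also cross the sets of arrays. With 1 division, 12 of 33 members rose, beside 0.94% of all genes, and the median change was 1.05. With the replicate block 27 rose, beside 4.47% of all genes. The 12 covered every role except the chromosome markers and the centromere and kinetochore genes: Anln, Ect2 and Kif23 of the midzone, Bub1b, Bub1 and Cdc20 of the checkpoint, Kif2c, Tpx2 and Hmmr of the spindle, and Plk1, Aurkb and Ccna2. With 2 divisions, 25 of 33 rose, beside 4.07% of all genes, and the median change was 1.22 (2.33-fold). The arrays were apart in the upward direction for 33 members in each contrast, beside 22% of all genes with 1 division and 26.7% with 2 divisions.

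Anln led both contrasts. It had log2 intensities of 9.87 and 9.79 with 1 division and 10.20 and 10.01 with 2 divisions, against 8.24 and 8.25 in the control. The changes were 1.58 (limma adjusted p = 0.0186) and 1.86 (limma adjusted p = 0.00409), each ± 0.18 SE with n = 2 a group. Bub1b came next, with changes of 1.40 (limma adjusted p = 0.0234) and 1.67 (limma adjusted p = 0.00477). The third largest was Kif2c with 1 division, at 1.36 (limma adjusted p = 0.0439), and Mki67 with 2 divisions, at 1.65 (limma adjusted p = 0.0231). With each array left out in turn, the change with 1 division ran from 0.96 to 1.77 for Kif2c. It ran from 1.19 to 1.61 for Bub1b and from 1.54 to 1.62 for Anln. Ndc80, Mad2l1 and Foxm1 changed least in both contrasts. Foxm1 differed from the control by 0.30 with 1 division and 0.31 with 2 divisions, neither past the threshold. Foxm1 and Ndc80 had the lowest mean levels of the members, at percentiles 47.2 and 50 among genes, while Mad2l1 stood at 82.3. The part of level in these small changes was not tested. Leaving out 1 array changed these counts: with 1 division no more than 4 members rose whichever array was left out, and with 2 divisions 3 rose without the first and 11 without the second array of that cohort, and 8 without the second control array. The call of Anln with 1 division was lost without either control array or either array of its own cohort.

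**Figure D4:**
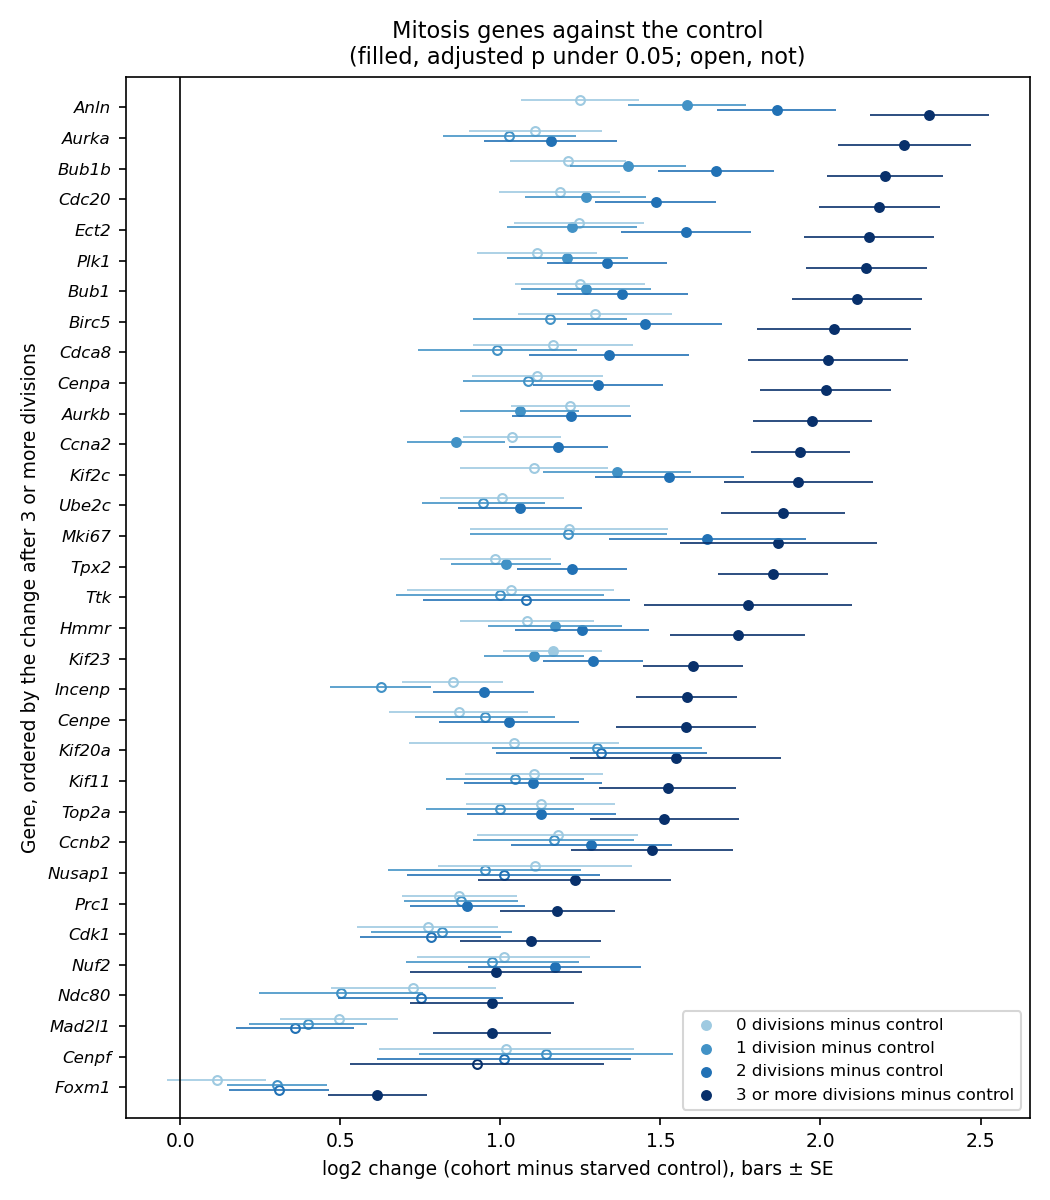
Log2 change against the serum-starved control (horizontal axis) for each of the 33 members (rows), with 1 point for each division cohort and its SE as a line; filled points passed the adjusted threshold. The points for 0, 1 and 2 divisions lie close together for most genes, and the point for 3 or more divisions lies to their right except for a few genes such as Cenpf and Nuf2.

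Between 2 and 0 divisions, within the later set of arrays, no member passed the test, beside 0.055% of all genes higher. At an unadjusted p under 0.05, 2 members were higher, beside 4.79% of all genes, and with the replicate block 0 passed, beside 0.748%. The median change was 0.14, with a range of -0.14 to 0.61, and 29 of 33 changes were above 0. The arrays were apart upward for 12 members, beside 20.2% of all genes, and downward for 1, Mad2l1, beside 17.2%. The upper bound of the 95% interval lay under a 2-fold increase for 30 of 33 members, so a difference as large as that was outside the interval for most of the list.

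Anln had the largest of these changes, with log2 intensities of 10.20 and 10.01 at 2 divisions, against 9.30 and 9.69 at 0 divisions. The arrays were apart, but the change of 0.61 ± 0.18 (SE, n = 2 each) had a limma adjusted p of 0.45. Its 95% interval ran from 0.19 to 1.04. Bub1b changed by 0.46 and Mki67 by 0.43, neither past the threshold. Aurka had 8.14 and 8.05, against 7.88 and 8.21, so its arrays overlapped and the 95% interval of its change ran from -0.43 to 0.53. At the low end stood Cenpf at -0.01, Nusap1 at -0.10 and Mad2l1 at -0.14, none past the threshold.

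The step to 3 or more divisions, which also crosses from the later to the earlier set of arrays, was uneven across the list. Against 0 divisions 13 of 33 members rose, beside 8.46% of all genes, with a median of 0.73 (1.66-fold). Against 2 divisions 4 rose, beside 3.46% of all genes, with a median of 0.53 (1.44-fold), and with the replicate block 11 rose, beside 10.1%. The arrays were apart upward for 30 members against 0 divisions, beside 33.5% of all genes, and for 29 against 2 divisions, beside 30.8%. These contrasts share the arrays with 3 or more divisions.

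The 4 genes that rose against 2 divisions were Aurka, Plk1, Ube2c and Ccna2, the last named after its values were seen. Aurka had log2 intensities of 8.94 and 9.45 with 3 or more divisions, against 8.14 and 8.05 with 2 divisions (change 1.11 ± 0.21 SE, n = 2 each, limma adjusted p = 0.0312). Ube2c, the ubiquitin-conjugating enzyme of the anaphase-promoting complex, had 10.22 and 10.70, against 9.57 and 9.71 (0.82 ± 0.19 SE, n = 2 each, limma adjusted p = 0.0495). Plk1 had 8.19 and 8.49, against 7.38 and 7.68 (0.81 ± 0.19 SE, n = 2 each, limma adjusted p = 0.0482). Ccna2 had 9.43 and 9.80, against 8.91 and 8.81 (0.76 ± 0.15 SE, n = 2 each, limma adjusted p = 0.0355). All 4 were apart between the groups. The call of Plk1 was lost when any of the 10 arrays was left out, and that of Ube2c in 9 of these cases. These included arrays outside the contrast. Each of the 4 calls was lost without the second array with 3 or more divisions, where the changes were 0.85 for Aurka, 0.58 for Ube2c, 0.66 for Plk1 and 0.57 for Ccna2, and 0 members passed. No member passed either without any 1 of the arrays with 0 or 2 divisions.

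Against 0 divisions, Aurka changed by 1.15 (limma adjusted p = 0.0122), Anln by 1.09 (limma adjusted p = 0.0103) and Plk1 by 1.03 (limma adjusted p = 0.0128). The 10 further members that rose were spread over entry (Ccna2), checkpoint and ubiquitination (Cdc20, Bub1b, Bub1, Ube2c), the passenger complex (Aurkb, Incenp), and Cenpa, Tpx2 and Ect2. Without the second array with 3 or more divisions, or without the first array with 0 divisions, 0 members passed, and without the second array with 0 divisions 4 did.

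**Figure D5:**
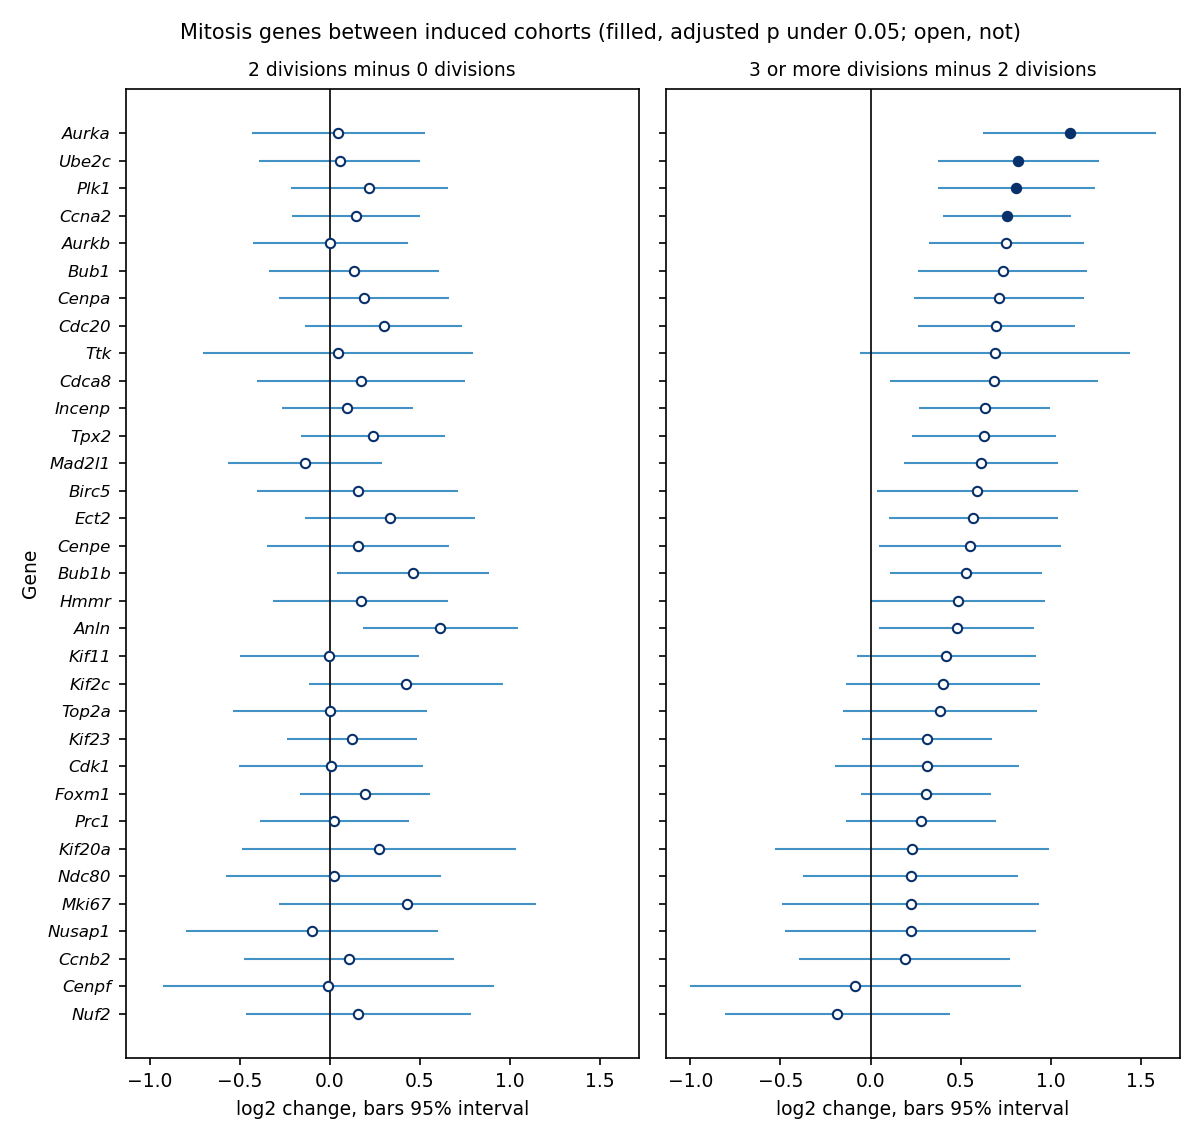
Log2 change between cohorts (horizontal axis) for each of the 33 members (rows), with the 95% interval of the fit as a line and filled points where the adjusted threshold was passed. Between 2 and 0 divisions most intervals cross 0. Between 3 or more and 2 divisions, a contrast that crosses the sets of arrays, the intervals of 18 of 33 members lie above 0. The same holds for 2433 of 18193 genes, those higher at an unadjusted limma p under 0.05. Aurka, Ube2c, Plk1 and Ccna2 are the filled points, while Cenpf and Nuf2 lie at or below 0.

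Cenpf and Nuf2 were the 2 members whose change in the cohort with 3 or more divisions was below 0, both against 0 and against 2 divisions. Nuf2 had log2 intensities of 8.08 and 8.02 at 0 divisions, 8.33 and 7.70 at 1 division, 8.23 and 8.19 at 2 divisions, 8.10 and 7.95 at 3 or more divisions, and 7.42 and 6.66 in the control. The arrays with 1 division spanned those of the other induced cohorts, and every induced array was above the control. The change of Nuf2 between 3 or more and 2 divisions was -0.18 (95% interval -0.81 to 0.44), and that of Cenpf was -0.08 ± 0.40 (SE, n = 2 each). For both genes the arrays with 3 or more divisions lay below those with 2 divisions, beside 24.6% of all genes lower without overlap, and neither change passed the threshold. Among the members above 0, Nusap1, which bundles spindle microtubules, had the smallest change against 0 divisions. It stood at 8.38 and 8.51 with 3 or more divisions, against 8.36 and 8.28 at 0 divisions, a change of 0.12 (95% interval -0.57 to 0.82).

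By role, the median change between 3 or more and 0 divisions was 1.09 for Aurka and Plk1, 0.87 for the 6 checkpoint and ubiquitination genes, 0.75 for the 4 passenger complex genes, 0.66 for the 5 spindle genes, 0.52 for Top2a and Mki67, 0.51 for the 5 midzone genes, 0.41 for the 4 entry factors and 0.25 for the 5 centromere and kinetochore genes. Between 3 or more and 2 divisions the order at the ends was the same, with 0.96 for Aurka and Plk1 and 0.22 for the centromere and kinetochore genes, but the difference between roles was not tested. Within the centromere and kinetochore role, Cenpa was at 0.90 and Cenpf at -0.09 against 0 divisions, the ends of that role.

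The members not yet given by array had the following levels. Ttk, the checkpoint kinase Mps1, had log2 intensities of 6.82 and 6.69 at 0 divisions, 6.94 and 6.50 at 1, 6.94 and 6.66 at 2, 7.31 and 7.69 at 3 or more, and 6.24 and 5.20 in the control. Aurkb, the kinase of the passenger complex, had 6.80 and 6.73 at 0 divisions, 6.77 and 6.44 at 1, 6.86 and 6.68 at 2, 7.39 and 7.65 at 3 or more, and 5.77 and 5.32 in the control. For both, the cohorts with 0, 1 and 2 divisions overlapped, and the cohort with 3 or more stood above them. Prc1, which bundles midzone microtubules, had 8.22 and 8.57 at 0 divisions, 8.46 and 8.34 at 1, 8.31 and 8.53 at 2, 8.62 and 8.79 at 3 or more, and 7.72 and 7.32 in the control. Kif20a, a midzone kinesin, had 7.54 and 7.80 at 0 divisions, 8.24 and 7.62 at 1, 8.04 and 7.84 at 2, 8.02 and 8.33 at 3 or more, and 7.12 and 6.13 in the control. For Kif20a the arrays with 1 and 2 divisions reached into the range of those with 3 or more, while every induced array was above the control. Hmmr, a microtubule-associated spindle protein, had 9.01 and 9.27 at 0 divisions, 9.41 and 9.03 at 1, 9.18 and 9.43 at 2, 9.68 and 9.91 at 3 or more, and 8.29 and 7.82 in the control. The remaining members, Top2a, Incenp, Cdca8, Cenpe, Ndc80 and Kif11, also had every induced array above both control arrays; the closest was Ndc80, at 6.28 on the second array with 1 division and 6.28 on the first control array.

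Across all groups, 33 of 33 members had their lowest mean in the control and 31 had their highest mean with 3 or more divisions. Cenpf was highest with 1 division and Nuf2 with 2 divisions. For 12 members the means stood in the order 0, 1, 2 and 3 or more divisions, and Anln was among them. The control and the cohort with 3 or more divisions come from the earlier set of arrays, the other cohorts from the later. Between 2 and 0 divisions no member passed the test, and no share over all genes is given for these orders. Replicate spread differed between groups: the median SD over members was 0.10 at 0 divisions, 0.20 at 1 division, 0.12 at 2 divisions, 0.22 at 3 or more divisions and 0.31 in the control. The first array was the higher one for 1 of 33 members with 3 or more divisions (median difference -0.30) and for 31 of 33 in the control (median difference 0.44), so in each of these groups nearly all members were higher on the same array. Without the first control array the median change for 3 or more divisions against the control was 2.04, and without the second it was 1.53.

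A gene's other probe sets were compared as a check on the choice of probe set. The members had 42 further probe sets, of which 9 were above the median level of all genes, 6.50. For 3 or more divisions against the control, 39 of 42 and 9 of 9 were above 0, with medians of 0.83 over the 42 and 1.86 over the 9. For 0 divisions against the control, 36 of 42 and 9 of 9 were above 0, with medians of 0.47 and 1.02. With the mean over a gene's probe sets in place of the brightest one, some calls were lost. Between 3 or more and 2 divisions, Aurka changed by 0.41 (limma adjusted p = 0.192) and Ccna2 by 0.57 (limma adjusted p = 0.114). Ube2c, with 1 probe set, kept its 0.82 there at a limma adjusted p of 0.0505. Between 3 or more and 0 divisions Aurka changed by 0.58 (limma adjusted p = 0.0575). Kif23 changed by 0.76 between 0 divisions and the control (limma adjusted p = 0.0823). With 1 division against the control, Kif2c changed by 0.69 (limma adjusted p = 0.112) and Bub1b by 1.03 (limma adjusted p = 0.0513). The other called member changes named with a test kept their call.

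Other genes of the mitotic machinery were taken from 7 lists, with 105 of 106 genes measured. For 3 or more divisions against the control, 55 rose and 4 fell, beside 15.9% of all genes higher and 11.7% lower. For 0 divisions against the control 2 rose, beside 0.22% of all genes higher, and 0 fell. Between 2 and 0 divisions 0 passed in either direction. Against 0 divisions, 17 rose with 3 or more divisions, beside 8.46% of all genes, and 2 fell, beside 5.44%. For 3 or more against 2 divisions 6 rose, beside 3.46% of all genes, and 0 fell. The lists differed in how many of their genes passed.

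Condensin, which compacts chromosomes, had 6 of 8 genes higher and 0 lower (median 1.15), led by Ncapg. Its log2 intensities were 7.34 and 7.72, against 5.48 and 4.84 in the control, a change of 2.37 (limma adjusted p = 0.000445). Other spindle and cytokinesis genes had 16 of 21 higher and 0 lower (median 1.39), led by the abscission protein Cep55 at 2.54 (limma adjusted p = 0.000491). Other entry and exit regulators had 10 of 17 higher and 1 lower (median 1.15). Trip13, an ATPase that disassembles checkpoint complexes, changed by 2.53 (limma adjusted p = 0.00022), and Ensa, an inhibitor of a phosphatase that opposes mitotic entry, was the gene that fell, by 0.46 (limma adjusted p = 0.0336).

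Other kinetochore and checkpoint genes had 14 of 26 higher and 0 lower (median 0.64), led by Cenpi at 1.93 (limma adjusted p = 0.00105). Cohesin and separation genes had 7 of 15 higher and 0 lower with a median of 0.13. Among them Espl1, the separase that cuts cohesin, changed by 2.54 (limma adjusted p = 0.000242) and Cdca5, sororin, which protects cohesin from release, by 1.94 (limma adjusted p = 0.000603). The MuvB and B-Myb list had 2 of 6 higher, Mybl2 (B-Myb) at 2.08 (limma adjusted p = 0.00163) and Lin9 at 1.19 (limma adjusted p = 0.0025), and 0 lower. The core of the anaphase-promoting complex had 0 of 12 higher and 3 lower, with a median of -0.30. Anapc4 had log2 intensities of 10.38 and 10.30, against 11.28 and 11.12 in the control, a change of -0.86 (limma adjusted p = 0.0015), and Anapc2 and Cdc16 fell by 0.59 and 0.52. The complex's partners in the member list, Cdc20 and Ube2c, rose in the same contrast. A CHR match stood in 1 of the 11 genes of that core with a window (9.09%). Over all 7 lists, the core included, it stood in 36 of the 89 genes with a window (40.4%).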

How the data were processed

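Expression was measured on 10 Affymetrix arrays, 2 in each of 5 groups. The deposited values are linear intensities, 1 per probe set. Per the submitters' processing notes RMA was used for the 4 earlier arrays, while no tool is named for the other 6. From these intensities, log2 was taken (floor 1, which moved 0 values), and the 10 arrays were quantile normalized. Of 45101 probe sets, 34945 named 1 gene, 932 several and 9160 none in the platform's gene table, and 64 control probe sets were left out. A gene was represented by its brightest probe set (mean log2 over the arrays), leaving 18193 genes.

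A single model of the 5 groups was fitted with limma 3.58.1 in R 4.3.3 (lmFit, eBayes, 5 residual degrees of freedom), tests two-sided, p-values Benjamini-Hochberg adjusted over all genes, threshold 0.05. The number of arrays limits the precision. Same-numbered arrays of different groups deviated together over the 9096 genes above the median level. For 10 pairs of groups the correlation of deviations lay between 0.477 and 0.872, so the replicate number was also fitted as a block. Over the 33 members the first array was the higher one for 31 in the control, 28 at 1 division and 18 at 2 divisions. It was the higher one for 12 at 0 divisions and for 1 at 3 or more, so members did not share a direction across groups.

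Genes named with a test were the 3 members with the largest and the 3 with the smallest change in each contrast, the leading member of each role for 3 or more and for 0 divisions against the control, and up to 3 called genes per further list and direction. Kif23 and Ccna2 were added after their values were seen, where they were among the called. The members and the lists were chosen with earlier results of these data known. Alternatives were a floor of 16, no quantile normalization or median centring, the replicate block, only the arrays compared, the mean over a gene's probe sets, only genes above the median level, a trended robust prior, and leaving out each array. Promoter windows and coordinates came from RefSeq, build GRCm38.p6. Scripts for the fit were tested on simulated data.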

Additional observations from a re-analysis of the deposited data

How the results depend on the processing

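Of 54 member changes named with a test, 24 were called, 15 of these lost the call in at least 1 of the 18 alternatives, 9 uncalled ones gained it, and no called change turned its sign. The count of members that rose for 0 divisions against the control was 26 with the replicate block (2.36% of all genes tested), 8 of the 31 members tested with only genes above the median level (0.825%), 5 with a trended robust prior (0.341%), 2 with the mean of a gene's probe sets (0.253%), 0 with a floor of 16 (0.0989%) and 0 with only the 4 arrays compared (0%). For 1 division it was 27 with the replicate block (4.47%), 5 with the mean of probe sets (0.61%), 1 with the floor of 16 (0.522%) and 0 with the 4 arrays (0%), and for 2 divisions 15 with the floor of 16 (3.09%) and 1 with the 4 arrays (0.363%). For 3 or more against 0 divisions it was 8 with the floor of 16 (7.11%). For 3 or more against 2 divisions it was 11 with the replicate block (10.1%), 7 of 31 with genes above the median level (8.09%), 0 with the floor of 16 (2.08%) and 0 with the 4 arrays (1.8%). The replicate block changed no other count of members by over 1.5 times, and the fits of 4 arrays have 2 residual degrees of freedom. With each array left out in turn, members that rose numbered 25 to 32 for 3 or more divisions against the control, 0 to 2 for 0 divisions, 0 to 4 for 1 division and 3 to 27 for 2 divisions. They numbered 0 to 0 for 2 against 0 divisions, 0 to 14 for 3 or more against 0 and 0 to 3 for 3 or more against 2. Where leaving out an array leaves a group with 1, that array is assumed to vary like the other groups. Changes that turned sign were all uncalled and near 0. For Cenpf between 2 and 0 divisions it was 0.0083 without quantile normalization, 0.042 with median centring, and -0.22 to 0.20 with arrays left out. For Nusap1 in that contrast it was -0.23 to 0.034 with arrays left out. For 3 or more against 0 divisions Nuf2 was 0.025 without quantile normalization, 0.10 with median centring and -0.10 to 0.052 with arrays left out, and Cenpf 0.029 with median centring and -0.30 to 0.12 with arrays left out. The mean of a gene's probe sets gave a median of 1.46 for 3 or more divisions against the control. The cause of these shifts was not tested.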
